A study of Mus musculus with 6 samples.

Results

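The Snail, Twist, Zeb and Prrx factors are 9 mesenchymal transcription factors, Snai1, Snai2, Snai3, Twist1, Twist2, Zeb1, Zeb2, Prrx1 and Prrx2. They were followed here in mouse myoblasts exposed to transforming growth factor beta (TGFb). Every probe named for a member in the array annotation was taken, which gave 11 probes among 55681 and 9 genes among 36499 gene names. Of the 9 genes, 8 were tested and 6 were well above background on all 6 arrays.

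RNA came from primary skeletal muscle myoblasts, the dividing precursors of muscle fibres, of male C57BL/6 mice aged 3 months. The cells were isolated by fluorescence sorting and grown in serum-containing medium, then kept with TGFb for 4 days (3 arrays) or left without it (3 arrays). The isoform and dose of TGFb, the sorting gate and the number of animals behind each array do not appear in the labels. The labels call the arrays independent experiments, but the names of the scanner files number untreated replicates 1 and 2 alike, so the p-values may measure partly technical spread.

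Snail proteins are zinc finger repressors that bind E-boxes, short DNA elements also used by the myogenic factor MyoD. Zeb proteins are zinc finger homeobox factors that bind the same kind of element and recruit CtBP corepressors, and Twist proteins are basic helix-loop-helix factors that pair with E proteins and can block MyoD. In epithelia these factors drive epithelial-mesenchymal transition, in which cells lose E-cadherin and gain motility, and TGFb is a known inducer of several of them. Prrx1 and Prrx2 are paired-related homeobox factors of limb and connective tissue mesenchyme.

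Values below are log2 processed intensities minus the 75th percentile of the same array, and each gene is represented by its brightest probe. Levels of different probes are not compared. The 75th percentile lay between 876 and 1569 intensity units, and 52.0% to 56.7% of the 59305 non-control spots of an array passed the background limit. The scanner worked on 2 days: the first held TGFb array 1 with untreated arrays 1 and 2, the second TGFb arrays 2 and 3 with untreated array 3. Within a group and a day, untreated arrays 1 and 2 correlated at 0.996 across genes, and TGFb arrays 2 and 3 at 0.982. Arrays correlated at 0.919 to 0.929 with arrays of their own group from the other day. With arrays of the opposite group from their own day they correlated at 0.970 to 0.977. So each comparison was fitted with group as the only term (the group-only fit) and again with the day of scanning added (the day-adjusted fit). A list of 9 TGFb-induced genes served as a check of the treatment. In the day-adjusted fit 6 rose and 0 fell, and in the group-only fit 2 rose and 0 fell. Of all genes, 4.6% and 0.697% were called higher in these fits. Ccn2, a matricellular gene of that list, was higher by 3.00 ± 0.14 (log2, SE, n = 3 per group, limma adjusted p = 0.00159 in the day-adjusted fit). In the same fit the feedback inhibitor Smad7 was higher by 1.61 ± 0.33 (adjusted p = 0.0407). Id1, also on the list, differed by -0.09 (adjusted p = 0.837).

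After TGFb, Prrx2 rose and Snai3 fell in the day-adjusted fit, and the other 6 tested members passed in neither fit. Prrx2 was 1.64-fold higher (95% interval 1.27 to 2.11). For Snai3, which was well above background on 1 of 3 TGFb arrays, no exact fold is given: its log2 difference was -1.67 by the processed intensities and -0.79 after normexp and quantile normalization. That is 2 of 8 tested members, where 10.1% of all 21960 genes passed the same fit (4.6% higher, 5.54% lower). In the group-only fit, 0 of 8 members passed the limma test at an adjusted p of 0.05. Of all genes, 1.4% were called there (0.697% higher, 0.701% lower). An unadjusted p below 0.05 was found for 2 of the 8 members, against 2530 of all 21960 genes. The groups did not overlap for the same 2 members, Prrx2 and Snai3, as for 17.9% of all genes. The sign of the difference was shared by the days for 7 of the 8, as for 67.9% of all genes, and Prrx1 was the exception. The calls rested on few arrays. In the day-adjusted fit, leaving out single arrays gave 0 to 3 called members: 3 without TGFb replicate 3, 1 without TGFb replicate 2 and 0 without any other. Averaging untreated replicates 1 and 2 into 1 sample gave 0. In bulk RNA, fewer cells of a type and less RNA per cell cannot be told apart.

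**Figure D1:**
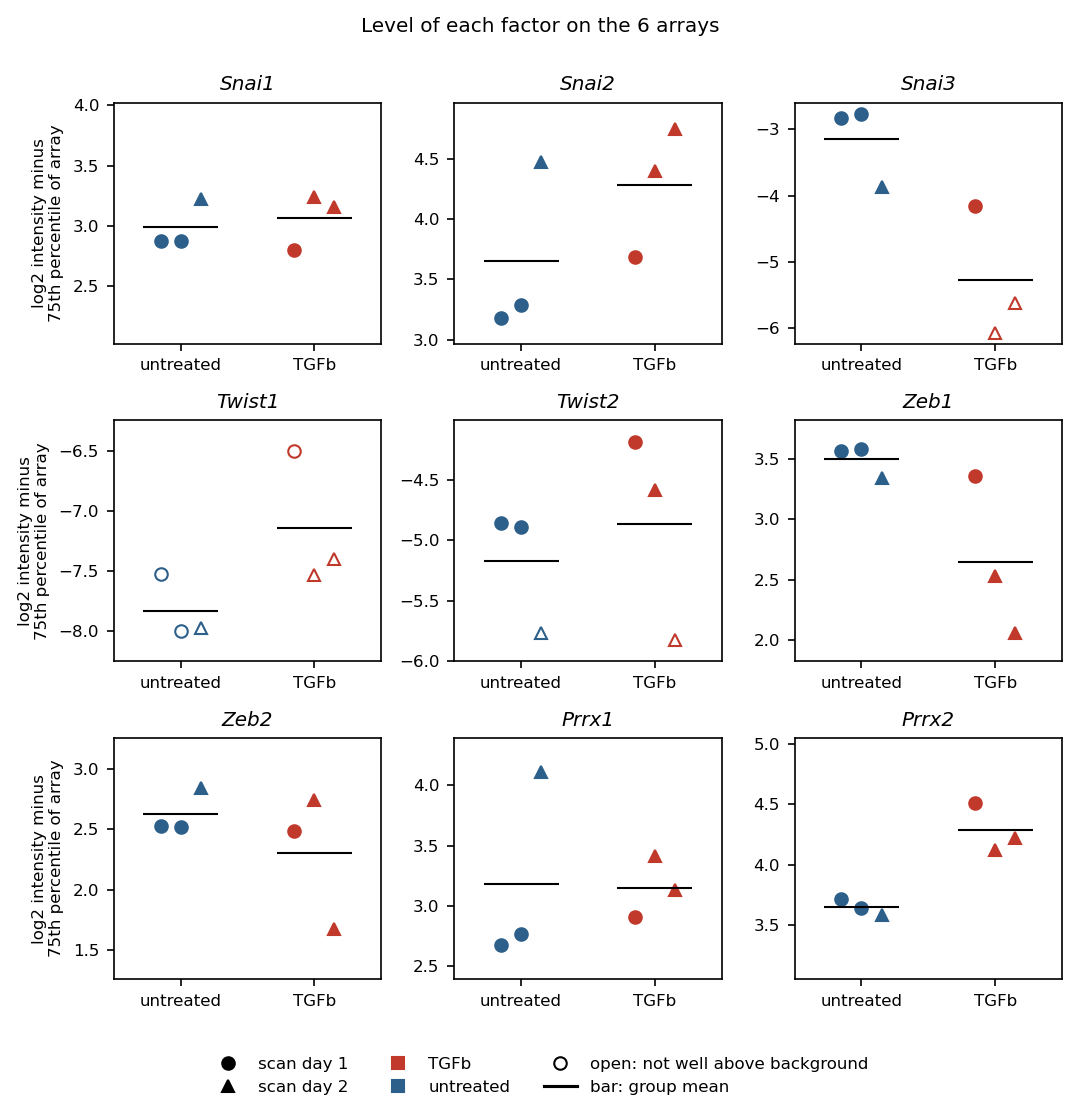
Level of each factor on the 6 arrays, as log2 intensity minus the 75th percentile of the array (vertical axis, scaled for each gene), for untreated and TGFb cells. Points are arrays, shaped by scan day and hollow where the probe was not well above background, and bars are group means; Prrx2 and Snai3 are the genes whose groups did not overlap, and all points of Twist1 are hollow.

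Snai1, the founding Snail repressor and a textbook early target of TGFb, passed in neither fit. The cells were taken after 4 days with TGFb, so earlier levels were not measured. It lay at 2.80, 3.24 and 3.15 on TGFb arrays 1 to 3 and at 2.88, 2.87 and 3.22 on untreated arrays 1 to 3. The groups interleaved, and the higher values in each belonged to the arrays scanned on day 2. The day-adjusted difference was -0.05 ± 0.13 (SE; adjusted p = 0.856) and the group-only one 0.08 ± 0.27 (adjusted p = 0.921). The 95% interval of the day-adjusted fold ran from 0.766-fold to 1.22-fold. Of all genes tested, 91.6% had a larger absolute difference in that fit. Its probe (mm9, chr2:167368073-167368132) was well above background everywhere.

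The promoter of Snai1 is shown because Snail1 is known to bind E-boxes in its own promoter. The sequence is that of RefSeq (GRCm38.p6, chr2:167537945-167538194, plus strand), the 250 bases before the annotated start, in lower case with matches to the E-box CANNTG or the SMAD element CAGAC on either strand in capitals.
Snai1: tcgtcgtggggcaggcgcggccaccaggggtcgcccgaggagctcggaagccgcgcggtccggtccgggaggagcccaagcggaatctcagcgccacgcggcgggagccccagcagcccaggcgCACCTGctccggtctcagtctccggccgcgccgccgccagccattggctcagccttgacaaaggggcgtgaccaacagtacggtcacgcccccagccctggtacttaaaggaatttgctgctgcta
It held 1 E-box, of the form CACCTG, beginning 126 bases before the start, and no CAGAC. Among 32851 promoter windows of that length, 66.22% held CANNTG, 17.22% CACCTG (which is also a CANNTG) and 42.19% CAGAC, each counted on both strands.

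Snai2, known as Slug and a factor of neural crest and mesenchyme, was bright in both groups. It lay at 3.69, 4.40 and 4.75 on the TGFb arrays and at 3.18, 3.29 and 4.48 on the untreated arrays. Untreated replicate 3 sat among the TGFb arrays of its own scan day, so the groups overlapped. The difference was 0.63 ± 0.48 in the group-only fit (adjusted p = 0.709) and 0.27 ± 0.18 in the day-adjusted fit (adjusted p = 0.387). It was 0.45 on day 1 and 0.097 on day 2. The 95% interval of the day-adjusted fold was 0.883 to 1.66. The probe lies at chr16:14709361-14709420 (mm9).

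Snai3, a Snail relative described in muscle and in lymphocytes, was low and fell after TGFb. It lay at -4.16, -6.07 and -5.61 on the TGFb arrays and at -2.83, -2.76 and -3.87 on the untreated arrays. Every TGFb array was below every untreated array, but the probe was well above background on 1 of 3 TGFb arrays and on 3 of 3 untreated arrays. It thus met the background filter through the group in which it was higher. The difference was -1.67 ± 0.22 in the day-adjusted fit (adjusted p = 0.0126) and -2.13 ± 0.59 in the group-only fit (adjusted p = 0.218). It was -1.36 on day 1 and -1.97 on day 2. Its size depended on how background was handled: after normexp correction and quantile normalization the day-adjusted difference was -0.79 (adjusted p = 0.00839). In the authors' deposited table of normalized log2 values, Snai3 lay at 7.21, 7.05 and 7.04 after TGFb and at 7.85, 7.97 and 7.94 without. Its day-adjusted limma p (adjusted over all genes) was 0.0228 without TGFb replicate 2 and 0.0218 without TGFb replicate 3. It missed the threshold without TGFb replicate 1 (0.0522) or untreated replicates 1, 2 or 3 (0.0547, 0.0625 and 0.119), and with untreated replicates 1 and 2 averaged (0.0577). The probe (mm9, chr8:124980233-124980292) is the only one for this gene.

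**Figure D2:**
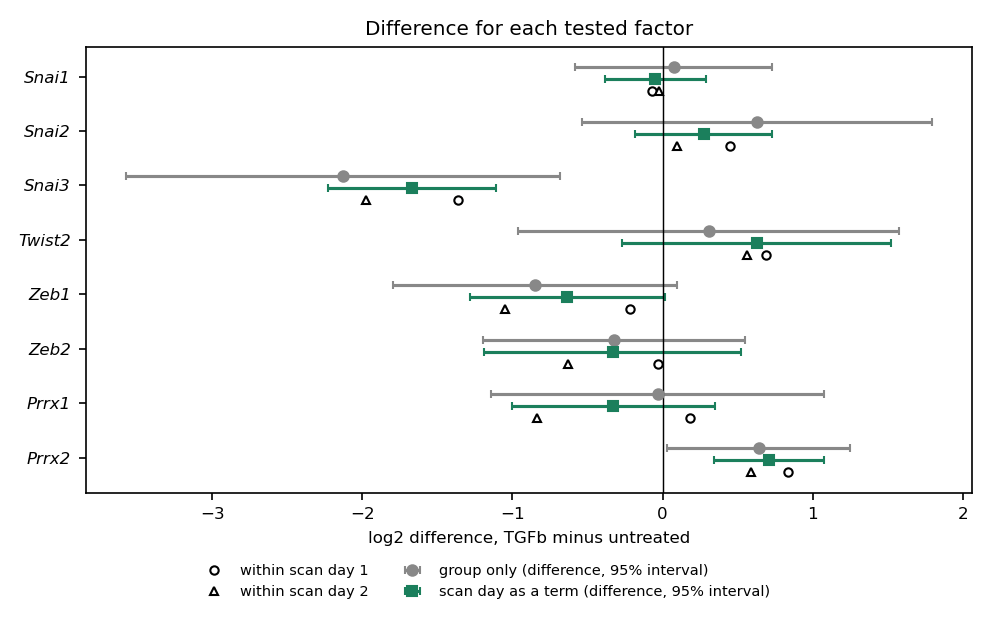
Log2 difference, TGFb minus untreated, for the 8 tested factors (horizontal axis), with 95% intervals from the limma fit with group only and from the day-adjusted fit, and the differences within each scan day as open points. The day-adjusted intervals lie clear of 0 for Snai3 (-2.23 to -1.11) and Prrx2 (0.35 to 1.08). Snai3 was well above background on 1 of 3 TGFb arrays, so the size of its difference, and with it that interval, is not exact.

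Twist1, a helix-loop-helix factor of cranial and limb mesenchyme, was not well above background on any array and was not tested. Its values lay at -6.50, -7.53 and -7.40 with TGFb and at -7.53, -8.00 and -7.97 without, below the lowest well-above-background value of every array (-5.95 to -5.22). No fold is given, and the array holds a single probe for it (mm9, chr12:34644411-34644470). Twist2, its relative in dermis and connective tissue, was close to that limit. It lay at -4.18, -4.59 and -5.83 after TGFb and at -4.85, -4.89 and -5.77 without, and was well above background on 2 of 3 arrays in each group. The third array of each group was the lowest of its group. The difference was 0.63 ± 0.36 in the day-adjusted fit (adjusted p = 0.323) and 0.31 ± 0.52 in the group-only fit (adjusted p = 0.834). The 95% interval of the day-adjusted fold was 0.829 to 2.88. Without TGFb replicate 3, on which Twist2 was not well above background, the day-adjusted difference was 0.90 (limma adjusted p = 0.0396). Leaving out any other array in that fit gave adjusted p-values of 0.344 to 0.635. The probe lies at chr1:93744519-93744577 (mm9).

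Zeb1, which represses E-cadherin and was reported to bind E-boxes of muscle genes, was bright in both groups. It lay at 3.36, 2.53 and 2.06 on the TGFb arrays and at 3.57, 3.59 and 3.35 on the untreated arrays. TGFb replicates 2 and 3 were lower than all others, while TGFb replicate 1 was just above the lowest untreated array. The difference was -0.63 ± 0.26 in the day-adjusted fit (adjusted p = 0.192) and -0.85 ± 0.39 in the group-only fit (adjusted p = 0.494). It was -0.21 on day 1 and -1.05 on day 2. The 95% interval of the fold ran from 0.411 to 1.01. The probe lies on mm9 chromosome 18, 5774613 to 5774672.

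Zeb2, a partner of receptor SMADs also known as SIP1, had 2 probes. The brighter (mm9, chr2:44842774-44842833) lay at 2.49, 2.75 and 1.67 on the TGFb arrays and at 2.52, 2.52 and 2.84 on the untreated arrays. TGFb replicate 3 was the lowest and the other 5 arrays lay close together. The day-adjusted difference was -0.33 ± 0.34 (adjusted p = 0.581), with a 95% interval of 0.439-fold to 1.44-fold. The group-only difference was -0.32 ± 0.36 (adjusted p = 0.774). The dimmer probe (mm9, chr2:44840038-44840097) lay at -0.70, -2.26 and -1.46 with TGFb and at -1.45, -1.09 and -2.23 without. It had a difference of 0.46 ± 0.27 in the same fit run over all probes (adjusted p = 0.352). The signs of the probes disagreed. On the same array the change of the dimmer relative to the brighter was 0.43 (two-sided exact permutation p = 0.5, where the smallest possible is 0.1), and it was 0.59 on day 1 and 1.00 on day 2, which that test does not take into account.

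Prrx1, the mesenchymal homeobox gene widely used to mark limb mesenchyme, also had 2 probes. The brighter (mm9, chr1:165175375-165175434) lay at 2.90, 3.42 and 3.14 with TGFb and at 2.67, 2.77 and 4.11 without. Untreated replicate 3 was the highest array and the other untreated arrays the lowest, so the TGFb values fell inside the untreated range. The difference was -0.33 ± 0.27 in the day-adjusted fit (adjusted p = 0.488) and -0.03 ± 0.46 in the group-only fit (adjusted p = 0.982). It was 0.18 on day 1 and -0.84 on day 2. The dimmer probe, annotated to another transcript (mm9, chr1:165185408-165185467), lay at 0.39, 1.55 and 1.13 with TGFb and at 0.46, 0.42 and 1.57 without. It differed by -0.14 ± 0.18 (adjusted p = 0.688 over all probes), and the relative change of the probes on the same array was 0.24 (exact permutation p = 0.3; -0.23 on day 1 and 0.61 on day 2).

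Prrx2, the paralog of Prrx1 in connective tissue mesenchyme, was the member that rose. It lay at 4.51, 4.12 and 4.22 on the TGFb arrays and at 3.71, 3.64 and 3.59 on the untreated arrays. Every TGFb array was above every untreated array, with group means of 4.29 ± 0.20 and 3.65 ± 0.06 (SD, n = 3). The difference was 0.71 ± 0.15 in the day-adjusted fit (adjusted p = 0.0416) and 0.64 ± 0.25 in the group-only fit (adjusted p = 0.406). It was 0.84 on day 1 and 0.59 on day 2. On the slides that held both groups it was 0.87 and 0.54. In the authors' deposited table the log2 means of Prrx2 were 14.9 after TGFb and 14.0 without. Of all genes tested, 20.4% had a larger absolute day-adjusted difference. That call was narrow: the limma adjusted p was 0.0435 without TGFb replicate 3 but 0.0565 to 0.196 without any other single array. It was 0.187 with untreated replicates 1 and 2 averaged and 0.0528 when adjusted over probes instead of genes. Of 11 fibroblast markers, 9 were tested and 0 rose in the same fit, and the part of other cells in the result was not tested. The probe lies at chr2:30736678-30736737 (mm9).

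The promoters of the Prrx pair are set side by side because Prrx2 was called and Prrx1 was not. They are RefSeq windows of GRCm38.p6, chr2:30845117-30845366 on the plus strand for Prrx2 and chr1:163313651-163313900 on the minus strand for Prrx1, 250 bases before each start, with CAGAC and CANNTG matches in capitals as above.
Prrx2: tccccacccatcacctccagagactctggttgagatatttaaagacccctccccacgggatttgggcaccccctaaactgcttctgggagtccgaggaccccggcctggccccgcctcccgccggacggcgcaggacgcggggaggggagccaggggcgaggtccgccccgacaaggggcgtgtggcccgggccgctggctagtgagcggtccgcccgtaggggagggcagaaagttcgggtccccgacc
Prrx1: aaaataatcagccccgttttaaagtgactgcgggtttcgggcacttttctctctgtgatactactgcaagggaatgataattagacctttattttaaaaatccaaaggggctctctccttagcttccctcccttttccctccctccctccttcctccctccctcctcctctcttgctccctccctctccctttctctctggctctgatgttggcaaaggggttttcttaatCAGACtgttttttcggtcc
The Prrx1 window held 1 CAGAC, beginning 19 bases before the start, and the Prrx2 window held neither motif. The windows also differed in base composition, at 70.0% G and C for Prrx2 and 47.6% for Prrx1. RefSeq windows were matched for 6 of the 9 members, and Snai2, Snai3 and Zeb1 had no entry. The Twist1 window held 1 CAGAC, 9 bases before the start, and those of Twist2 and the 4 starts of Zeb2 held none of the motifs.

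Members of a family were compared by their log2 changes on the same arrays, over 5 pairs. The change of Prrx2 exceeded that of Prrx1 by 0.67, and the difference was -2.20 for Snai3 against Snai1 and -2.76 for Snai3 against Snai2. Snai3 was well above background on 1 of 3 TGFb arrays, so the sizes of its differences are not exact. Snai2 exceeded Snai1 by 0.55 and Zeb2 exceeded Zeb1 by 0.53. None of the 5 differences passed a two-sided exact permutation test (p = 0.2 to 0.4, adjusted over the pairs 0.333 to 0.4), where 3 arrays against 3 allow no p below 0.1. That test takes no account of scan day. Each of the 5 differences had the same sign on both days, where 67.9% of all single genes kept theirs. The differences within the Snail family are not independent of each other, and the shared signs were not tested. On days 1 and 2, Prrx2 against Prrx1 gave 0.65 and 1.42, and Zeb2 against Zeb1 gave 0.18 and 0.42. Snai3 gave -1.29 and -1.95 against Snai1, and -1.81 and -2.07 against Snai2. Snai2 against Snai1 gave 0.52 and 0.12.

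For 5 of the 8 tested members, Snai1, Snai2, Twist2, Zeb1 and Prrx1, the difference between scan days was larger than that between treatments. Day 2 minus day 1 was 1.06 for Snai2, 0.88 for Prrx1, -0.96 for Twist2 and -1.38 for Snai3. In the authors' deposited table the same scan-day differences were -0.16, -0.03, -0.23 and -0.07. There, arrays correlated at 0.991 to 0.993 with their own group across days and at 0.978 to 0.983 with the opposite group within a day. A group-only limma fit to that table called the same 2 members, Prrx2 (0.84, adjusted p = 0.012) and Snai3 (-0.82, adjusted p = 0.00412). The normalization behind the table is unknown, so these p-values take its values as given.

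**Figure D3:**
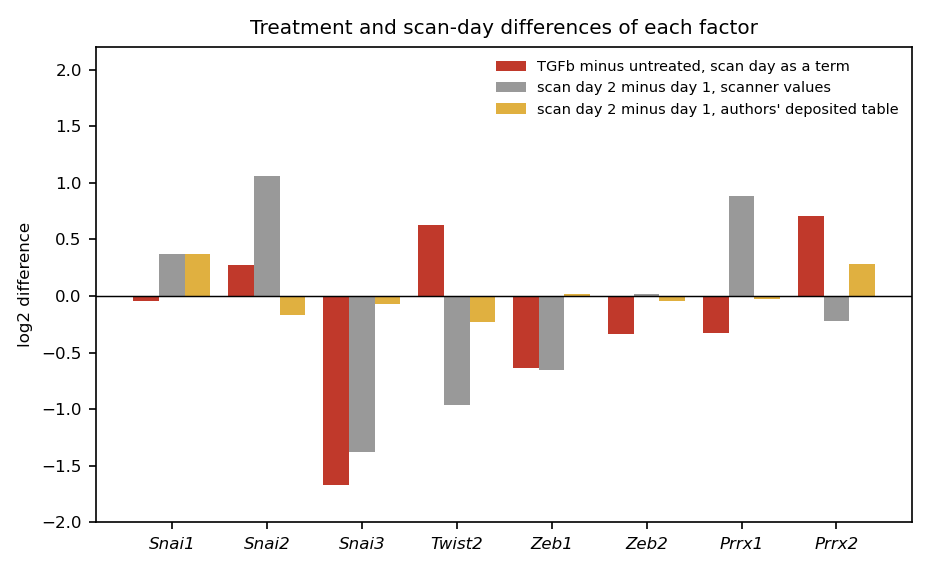
Log2 differences of the 8 tested factors (vertical axis): TGFb minus untreated in the day-adjusted fit, scan day 2 minus day 1 in the scanner values, and the same scan-day difference in the authors' deposited table. For Snai2 and Prrx1 the scan-day bars are 1.06 and 0.88 and the treatment bars 0.27 and -0.33, and the scan-day bars are -0.16 and -0.03 in the deposited table.

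The gene lists below were set against the day-adjusted fit unless stated otherwise, where the median difference of all tested genes was 0.04. That fit called 4.6% of all genes higher and 5.54% lower. Among 7 tested basic helix-loop-helix partners of Twist and their Id inhibitors, 1 rose and 0 fell. The riser was Id2, an inhibitor that sequesters E proteins (1.12 ± 0.20, adjusted p = 0.0284; 1.27 on day 1 and 0.97 on day 2). The E protein genes Tcf3, Tcf4 and Tcf12 differed by 0.06, -0.64 and 0.36 (adjusted p = 0.866, 0.105 and 0.243), and the BMP-responsive Id1 and Id3 by -0.09 and 0.16 (adjusted p = 0.837 and 0.773). Hand1 and Hand2 were not well above background on any array. The count was 1 without TGFb replicate 2 or 3 and 0 without any other single array.

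Of 16 corepressor genes recruited by Snail and Zeb proteins, 0 passed in limma, and the list median was -0.04. An unadjusted p under 0.05 was found for 4 of the 16, where 5954 of all 21960 genes had one in the day-adjusted fit. The Zeb corepressors Ctbp1 and Ctbp2 differed by -0.26 and 0.43 (adjusted p = 0.397 and 0.113). Ajuba, a LIM protein that bridges Snail to its corepressors, differed by -0.90 ± 0.20 (adjusted p = 0.0541), and the arginine methyltransferase Prmt5 and the LIM protein Limd1 by -0.46 and -0.71 (adjusted p = 0.102 and 0.136).

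Among 22 tested genes that act on Snail or Twist expression or protein stability, 4 rose and 0 fell. Of all genes, 4.6% were called higher and 5.54% lower. They were the chromatin protein Hmga2, which binds the promoters of Snai1 and Twist1 (1.33 ± 0.14, adjusted p = 0.00706), the lysyl oxidases Loxl2 and Loxl3, reported to stabilise Snail protein (1.47 and 1.05, adjusted p = 0.00766 and 0.0139), and the kinase Prkd1, which phosphorylates Snail (0.71, adjusted p = 0.0491). The arrays measured RNA only, so protein levels of the members are not known from them. Prkd1 was dim, at -4.19, -2.38 and -2.41 on the TGFb arrays and at -4.67, -4.89 and -3.24 on the untreated arrays. The median over the 22 genes was 0.0091. Without TGFb replicate 1, or without untreated replicate 1, 2 or 3, 0 of them rose, and without TGFb replicate 2 or 3 there were 3.

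Of 30 tested mesenchymal genes of epithelial-mesenchymal transition, 11 rose and 0 fell, where 4.6% of all genes were called higher, and 4 rose in the group-only fit. Wnt5a, a noncanonical Wnt ligand, rose by 2.10 ± 0.15 (adjusted p = 0.0029), the secreted follistatin-like Fstl1 by 1.74 ± 0.17 (adjusted p = 0.0056), and the crosslinking enzyme Lox and the actin-binding Tagln by 2.95 and 1.98 (adjusted p = 0.00188 and 0.00325). Fibronectin, Fn1, rose by 1.42 (adjusted p = 0.00767). N-cadherin, Cdh2, differed by 0.66 ± 0.17 (adjusted p = 0.0781) and vimentin, Vim, by 0.13 ± 0.17 (adjusted p = 0.668). Dnm3os, a noncoding transcript controlled by Twist1, differed by 1.41 ± 0.44 (adjusted p = 0.114). The list median was 0.67. Without single arrays 2 to 12 of its genes rose and 0 or 1 fell, and 6 rose with untreated replicates 1 and 2 averaged.

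Epithelial genes reported as Snail or Zeb targets moved in both directions. Of 25, 14 were tested and 7 were not well above background on any array. In limma, 3 rose and 1 fell, where 4.6% of all genes were called higher and 5.54% lower. E-cadherin, Cdh1, was dim (well above background on 2 TGFb and 3 untreated arrays) and differed by -0.84 ± 0.21 (adjusted p = 0.0684). The tight junction gene Marveld2 fell by 1.14 on the log2 scale (adjusted p = 0.0106). The risers were the desmosomal Pkp2 (0.75 ± 0.13, adjusted p = 0.0277) and the keratins Krt19 (1.23 ± 0.24, adjusted p = 0.0363) and Krt18 (1.98 ± 0.19, adjusted p = 0.00494). Krt18 passed the background limit on every TGFb array but on only 1 untreated array. It thus met the filter through the group in which it was higher, and the size of its difference is not exact. Without single arrays, or with untreated replicates 1 and 2 averaged, 1 to 3 genes of the list rose and 0 or 1 fell. Among 6 tested factors opposed to the mesenchymal programme, Grhl3, a grainyhead factor of epidermis, fell by 2.52 ± 0.23 on the log2 scale (adjusted p = 0.0049) and Klf4, a zinc finger factor of epithelia, rose by 0.91 ± 0.15 (adjusted p = 0.023). In that list 1 rose only when TGFb replicate 2 or 3 was the array left out, and 0 fell without TGFb replicate 1 or untreated replicate 3.

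Other mesenchymal and connective tissue transcription factors numbered 32 tested, of which 5 rose and 2 fell. Over all genes the shares called were 4.6% higher and 5.54% lower. The risers were Sox4 (1.32 ± 0.14), the tendon factor Mkx (1.83 ± 0.23), the cartilage factor Sox9 (1.22 ± 0.16), the somite factor Meox1 (1.61 ± 0.32) and Ebf1 (1.11 ± 0.23), the last measured above background on 3 of 6 arrays (adjusted p = 0.00681, 0.0106, 0.013, 0.0389 and 0.0449). Tbx15 and Osr1, a T-box and an odd-skipped factor of limb connective tissue, fell (-1.93 and -0.99, adjusted p = 0.0164 and 0.0281). Foxc2, a forkhead factor of mesenchyme, differed by 0.82 ± 0.26 (adjusted p = 0.114). Meox1, Ebf1 and Osr1 are named here after their values were seen. With untreated replicates 1 and 2 averaged 1 rose and 0 fell, and without single arrays 0 to 9 rose and 0 to 3 fell.

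Muscle differentiation genes driven from E-boxes, the elements that MyoD, Snail and Zeb proteins share, fell widely. Any part of the members in this fall was not tested. Of 30 tested, 21 fell and 0 rose, where 5.54% of all genes were called lower, and 7 fell in the group-only fit. The calcium-storage gene Casq1 (-3.51 ± 0.17), the fast troponin Tnnc2 (-3.16), the perinatal myosin Myh8 (-2.44) and the calcium pump Atp2a1 (-2.09) led the list (adjusted p = 0.00159, 0.00188, 0.00256 and 0.00236). Myog, the differentiation factor, differed by -0.51 ± 0.17 (adjusted p = 0.128). The list median was -1.25. Without single arrays 7 to 21 of its genes fell, and 11 fell with untreated replicates 1 and 2 averaged.

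**Figure D4:**
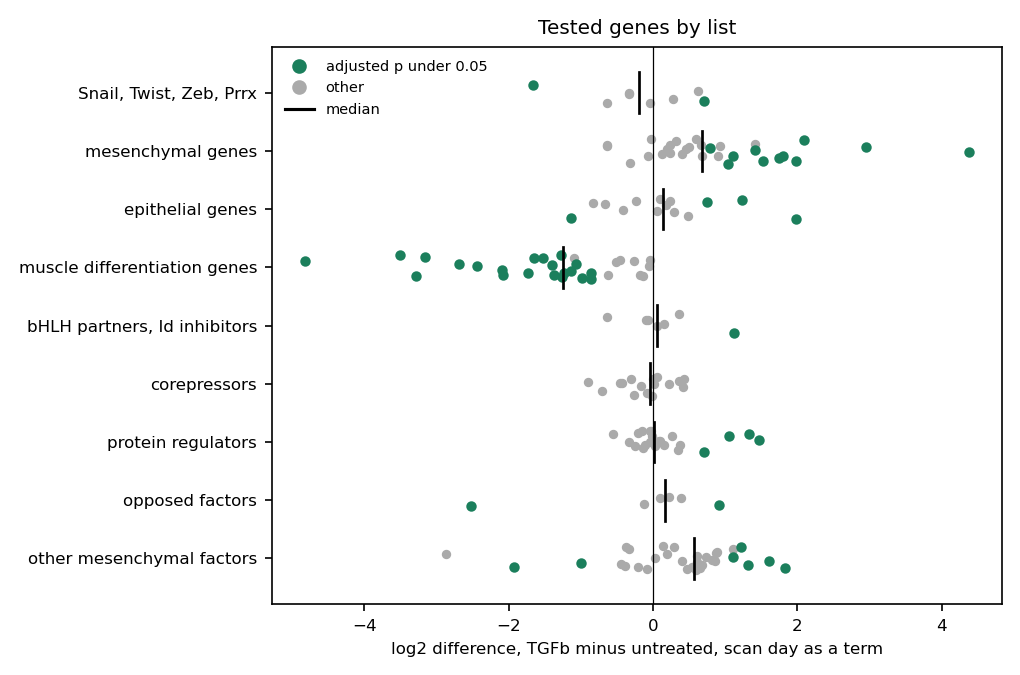
Log2 difference, TGFb minus untreated in the day-adjusted fit (horizontal axis), for every tested gene of the 9 factors and of the 8 gene lists (rows; vertical scatter within a row carries no value). Points coloured green had a limma adjusted p under 0.05, and black bars are medians; 11 of 30 mesenchymal genes lie coloured to the right and 21 of 30 muscle differentiation genes coloured to the left, while 2 of the 8 tested factors are coloured.

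In the group-only fit, limma called 0 genes of the partner, corepressor, regulator, opposed-factor, epithelial and other mesenchymal factor lists. Of tested partners, corepressors and regulators, 1 of 7, 1 of 16 and 3 of 22 had an unadjusted p under 0.05. For the opposed factors, epithelial genes and other mesenchymal factors it was 2 of 6, 4 of 14 and 10 of 32. Over all genes it was 2530 of 21960. In the day-adjusted fit with untreated replicates 1 and 2 averaged, 0 partner and 0 regulator genes passed, and of the opposed factors 0 rose and 1 fell.

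The myoblast label was checked against markers. Of 10 myoblast markers, 9 were tested, among them Pax7, Myod1 and Myog, and their summed level (log2) was 9.03 to 9.76 with TGFb and 9.41 to 9.99 without. Des, the muscle intermediate filament, fell in that list (-1.28, adjusted p = 0.0101), and Myf5 was well above background on 1 array. Prrx and Twist genes are also expressed by fibroblasts, so fibroblast markers were read beside them. Of the 9 tested, 0 rose and 3 fell (Dcn, Thy1 and Osr1), where 4.6% of all genes were called higher and 5.54% lower. The defining genes Lum and Dpt were not well above background on any array. In the group-only fit 0 of the tested fibroblast markers passed in limma. There, 3 of the 9 had an unadjusted p under 0.05, against 2530 of all 21960 genes. Day-adjusted, 0 to 4 fell without single arrays (0 without TGFb replicate 1 or untreated replicate 3, 1 without untreated replicate 1 or 2, 2 and 4 without TGFb replicates 2 and 3). In these fits 1 rose without TGFb replicate 3 and 0 without any other, and with untreated replicates 1 and 2 averaged 1 fell. The summed fibroblast level was 5.62 to 6.74 with TGFb and 5.36 to 6.59 without. It covered 10 genes with a value on every array, not all of them well above background. Of the epithelial markers 3 of 6 were tested and 1 rose (Krt18, well above background on 1 untreated array). Cdh1, in the same list, differed by -0.84 (limma adjusted p = 0.0684). The summed epithelial level was -2.66 to -1.90 with TGFb and -3.01 to -2.60 without. Among tested markers 1 of 4 endothelial and 1 of 4 Schwann cell genes fell, and 1 of 5 smooth muscle genes rose and 2 fell. Of 3 leukocyte genes 0 passed in limma. An unadjusted p under 0.05 was found for 1 of these 3, where 5954 of all 21960 genes had one in the day-adjusted fit. Of 8 endothelial markers 4 were not well above background on any array, as were 2 of 8 leukocyte, 1 of 6 Schwann cell and 2 of 7 smooth muscle markers.

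For the 6 members well above background on all 6 arrays, which leaves out Snai3, Twist1 and Twist2, the genes with the most similar course over the arrays were sought among 12361 genes measured above background throughout, by root mean square distance after centring. For Prrx2 they were Lpin3 (0.063), Abhd14b (0.070) and Pkp2 (0.075), with day-adjusted log2 differences of 0.60, 0.79 and 0.75. For Snai2 they were Maf (0.054), Ubb (0.058) and Adam9 (0.066), for Zeb1 Brf1 (0.083), Usp36 (0.084) and Dld (0.093), and for Zeb2 Rab5b (0.049), Pomgnt2 (0.058) and Pigk (0.058). Prrx1 was nearest to Pigg (0.074), Aimp1 (0.077) and Arl8b (0.079), and Snai1 to Ppp2r2d (0.047), Ell (0.047) and Selenoh (0.053). The arrays share their scan days in these distances, and the median distance to the candidates was 0.458 to 0.774.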

How the data were processed

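The series holds 6 one-colour Agilent arrays, 3 per group. The authors deposited scanner files of spot intensity, extracted with Agilent Feature Extraction 10.7.3.1 per the file headers, with background subtracted and spatial trends removed within each array; spots near background carry substitute values. The authors also deposited a table of normalized log2 values, and each of its columns was closest to its own array (r across spots of 0.992 to 0.993 with log2 signal). Scale and direction follow from that match, column medians were 6.99 to 7.00, and the normalization used is not known.

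Control and outlier spots (176 to 365 per array) were left out, the 75th percentile of log2 processed intensity was subtracted, and spots of a probe were averaged. Probes well above background on at least 3 of 6 arrays were kept and the probe with the highest mean stood for its gene, leaving 21960 genes. Symbols were updated through RefSeq (GRCm38.p6) for 26300 of 55681 probes, changing 2839. The tests used limma 3.58.1 under R 4.3.3 (lmFit, eBayes; Benjamini-Hochberg over all genes, threshold 0.05), with group as the only term and with scan day added. Intervals are 95% and come from that fit. Other backgrounds, scalings, filters and blocks were tried, and single arrays left out. Members and lists were chosen with earlier results of these data known. The text names all members, up to 4 genes per list by smallest day-adjusted p, a set of further genes whatever their values (such as Cdh1, Vim and Myog), and the 3 genes nearest to each of the 6 members well above background on all arrays.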

Additional observations from a re-analysis of the deposited data

How the results depend on the processing

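The planned fit had group as its only term. Genes called, 307 in that fit, came to 2227 in the day-adjusted fit, 107 with median centring, 3280 in the authors' deposited table, 790 with slide as a fixed block and 4280 with slide as a random block. Leaving out single arrays gave 0 to 195 in the group-only fit. In the day-adjusted fit it gave 698, 1763 and 3316 without TGFb replicates 1, 2 and 3, and 680, 603 and 327 without untreated replicates 1, 2 and 3. Among alternatives chosen after seeing the data, all but one with the day as a term, the count was 3179 with normexp and quantile normalization, 3345 in the deposited table, 2595 with quantile normalization and 1302 with no filter on dim probes. With untreated replicates 1 and 2 averaged it was 674, and 0 without the day term.

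Members called, 0 in the group-only fit, were 2 in the day-adjusted fit, with slide as a random block, in the deposited table, and with the day term added to normexp and quantile, quantile or deposited values. There was 1 with the day term and no filter, and there were 0 with slide as a fixed block (adjusted p of 0.171 for Prrx2 and 0.0541 for Snai3). Leaving out single arrays gave 0 in the group-only fit and 0 to 3 in the day-adjusted fit.

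Replicate numbers are in the labels, but same-numbered arrays did not all deviate together (r of 0.81, -0.72 and 0.69 for numbers 1, 2 and 3). The arrays numbered 1 shared a scan day, as did those numbered 3, while those numbered 2 did not. These r values therefore cannot tell pairing from scan day. The names of the scanner files number the TGFb arrays 1, 2 and 3 and the untreated arrays 2, 2 and 3. The replicate block used the label numbers instead. With a replicate block 2 genes and 0 members were called, and with a replicate block and the day term 0 and 0 by limma's adjusted p, although 3613 genes had a raw p under 0.05.

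Snai1 turned negative in 17 of 34 alternatives. It was -0.011 with quantile normalization, -0.048 day-adjusted and also day-adjusted with no filter, -0.026 and -0.0085 with slide as a fixed and a random block, and -0.069 with the replicate block and day. It was -0.0024 with quantile normalization and day, -0.044 with untreated replicates 1 and 2 averaged and day, and -0.072 and -0.023 on days 1 and 2. Day-adjusted, it was -0.023, -0.069 and -0.033 without TGFb replicates 1, 2 and 3, and -0.044, -0.044 and -0.072 without untreated replicates 1, 2 and 3. Without single arrays in the group-only fit it ran from -0.011 to 0.21. Prrx1 turned positive in 5, at 0.088 with the mean of its probes, 0.18 on day 1, 0.091 without TGFb replicate 1, and 0.43 or, day-adjusted, 0.18 without untreated replicate 3. Its group-only range without single arrays was -0.29 to 0.43. Twist2 was -0.034 without TGFb replicate 1 and at most 0.79 without other single arrays in the group-only fit. Snai2, Snai3, Zeb1, Zeb2 and Prrx2 kept their sign in every alternative run. The causes were not tested. Array number limits precision, and near background the substituted values limit Snai3 and Twist2.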
